A study of Mus musculus with 10 samples.

Results

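The long-chain acyl-CoA synthetases were followed in interscapular brown adipose tissue (iBAT), taken as 9 named genes out of 27267 rows of the deposited expression table. The members were *Acsl1*, *Acsl3*, *Acsl4*, *Acsl5* and *Acsl6* of the ACSL family, *Acsbg1* of the bubblegum family, and *Slc27a2*, *Slc27a3* and *Slc27a4*, which encode the fatty acid transport proteins FATP2, FATP3 and FATP4. All 9 were in the table. The samples were iBAT from C57BL/6 mice labelled male and aged 4 weeks, 5 labelled wild-type (WT 1 to WT 5) and 5 labelled *Mgp* KO (KO 1 to KO 5), kept on chow under a standard light cycle. *Mgp* encodes matrix Gla protein, an extracellular inhibitor of bone morphogenetic proteins, and the deletion was global, so no cell type was singled out by the model. The question put to these genes was how the mRNAs for fatty acid activation compare among isoforms and between the genotypes.

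Acyl-CoA synthetases join a free fatty acid to coenzyme A at the cost of ATP, which traps the fatty acid in the cell and makes it usable. The acyl-CoA can then enter mitochondria for oxidation, be built into glycerolipids, or be elongated and desaturated. The isoforms differ in where they sit and which chain lengths they prefer. In brown adipose tissue ACSL1 is the isoform best known for feeding fatty acids to oxidation during cold exposure.

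Total reads on genes ran from 9253793 to 22252260 per library. Replicates 1 to 3 and replicates 4 and 5 stood apart in both genotypes. Replicates 1 to 3 had at least 19616366 reads and at most 1.72% of them on the mitochondrial ribosomal RNAs, whereas replicates 4 and 5 had at most 13281873 reads and 6.50% to 16.7%. The targeted gene checked the labels of only part of the group. *Mgp* was at 466 to 1146 normalized counts in wild-type, at 0 or 1 read in KO 1, KO 2 and KO 3, but at 500 normalized counts (309 reads) in KO 4 and 331 (282 reads) in KO 5, so these 5 are named below by their label, as libraries labelled *Mgp*-KO. WT 2 carried 5094 normalized counts of *Xist*, a transcript of female cells, against 0.754 to 44.0 in the other libraries. Of the brown adipocyte markers, *Adipoq* was at 4675 or more and *Ucp1*, the uncoupling protein of brown fat, at 2201 or more normalized counts in all 10 libraries. KO 4 had the highest endothelial marker sum (55428 normalized counts over 8 genes, against 17341 to 29991 in the other libraries) and erythroid marker sum (101497 over 6 genes, against 3009 to 26407). KO 2 and KO 5 had the highest skeletal muscle marker sums (32653 and 33489 over 10 genes, against 540 to 6258 elsewhere).

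*Acsl1* was the leading long-chain acyl-CoA synthetase mRNA of wild-type iBAT, followed by *Acsl5* and *Slc27a2*. To compare genes, each normalized count (a read count divided by the authors' library size factor) was divided by the gene's exon length in kilobases. The *Acsl1* level was 3062 ± 447 normalized counts per kilobase (SD, n = 5), that of *Acsl5* 1396 ± 654 and that of *Slc27a2* 729 ± 129. *Acsl1* was above *Acsl5* in 5 of 5 wild-type libraries and their ranges did not overlap, while *Acsl5* was above *Slc27a2* in 4 of 5 and those ranges did overlap.

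A middle group in wild-type held *Slc27a4* at 144 ± 29.3 normalized counts per kilobase (SD, n = 5), *Acsl3* at 119 ± 76.3 and *Acsl4* at 75.5 ± 21.0, with overlapping ranges between each neighbouring pair. *Slc27a3* at 8.64 ± 3.56 and *Acsbg1* at 3.04 ± 2.08 were the lowest of the tested members. *Acsl6* was essentially undetected in wild-type, with 1 read in WT 1 and none in the other 4 libraries. *Acsl1*, *Acsl5* and *Slc27a2* together took most of the summed level of the 9 genes, with mean shares of 55.8%, 24.3% and 13.5%. These shares depend on the gene length used. With the longest annotated transcript in place of all exons of the gene (5676 in place of 10483 bases for *Acsl1*), the share of *Acsl1* in wild-type was 66.3%, and the order of the 9 genes by mean level was as before.

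*Acsl5*, *Acsl3* and *Acsl1* lay lower in the libraries labelled *Mgp*-KO than in wild-type, and each of these 3 mRNAs was lower in every labelled *Mgp*-KO library than in any wild-type library. No member was higher in every labelled *Mgp*-KO library. Among all 13714 tested genes, 2.11% showed such a separation in the lower direction and 1.39% in the higher one. No member passed an adjusted p of 0.05 in the fit over all 10 libraries (limma on log2 of the normalized count + 1), a fit in which 0.0583% of tested genes were called lower and 0.00729% higher. At an unadjusted p under 0.05, 3 of the 8 tested members were lower, against 5.69% of all tested genes, and none was higher, against 4.67%. With a term for the 2 sets of replicates in the same limma model, 2 members were called lower (*Acsl5* and *Acsl3*, beside 1.54% of all tested genes) and none higher (0.824%), and the same 2 with a replicate block in place of the set term (1.3% of tested genes lower). DESeq2, the tool of the study, called *Acsl5*, *Acsl3* and *Acsl1* lower (1.26% of the genes it tested) and none higher (0.997%), and with the set term it called *Slc27a4* lower too (3.91%) and again none higher (3.5%). *Acsl6* fell under the filter on low values and was not among the tested genes. The methods describe separate mice, while the labels only number the samples, so p-values measure the spread between these libraries. In tissue, fewer adipocytes and less of an mRNA per adipocyte cannot be told apart.

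**Figure D1:**
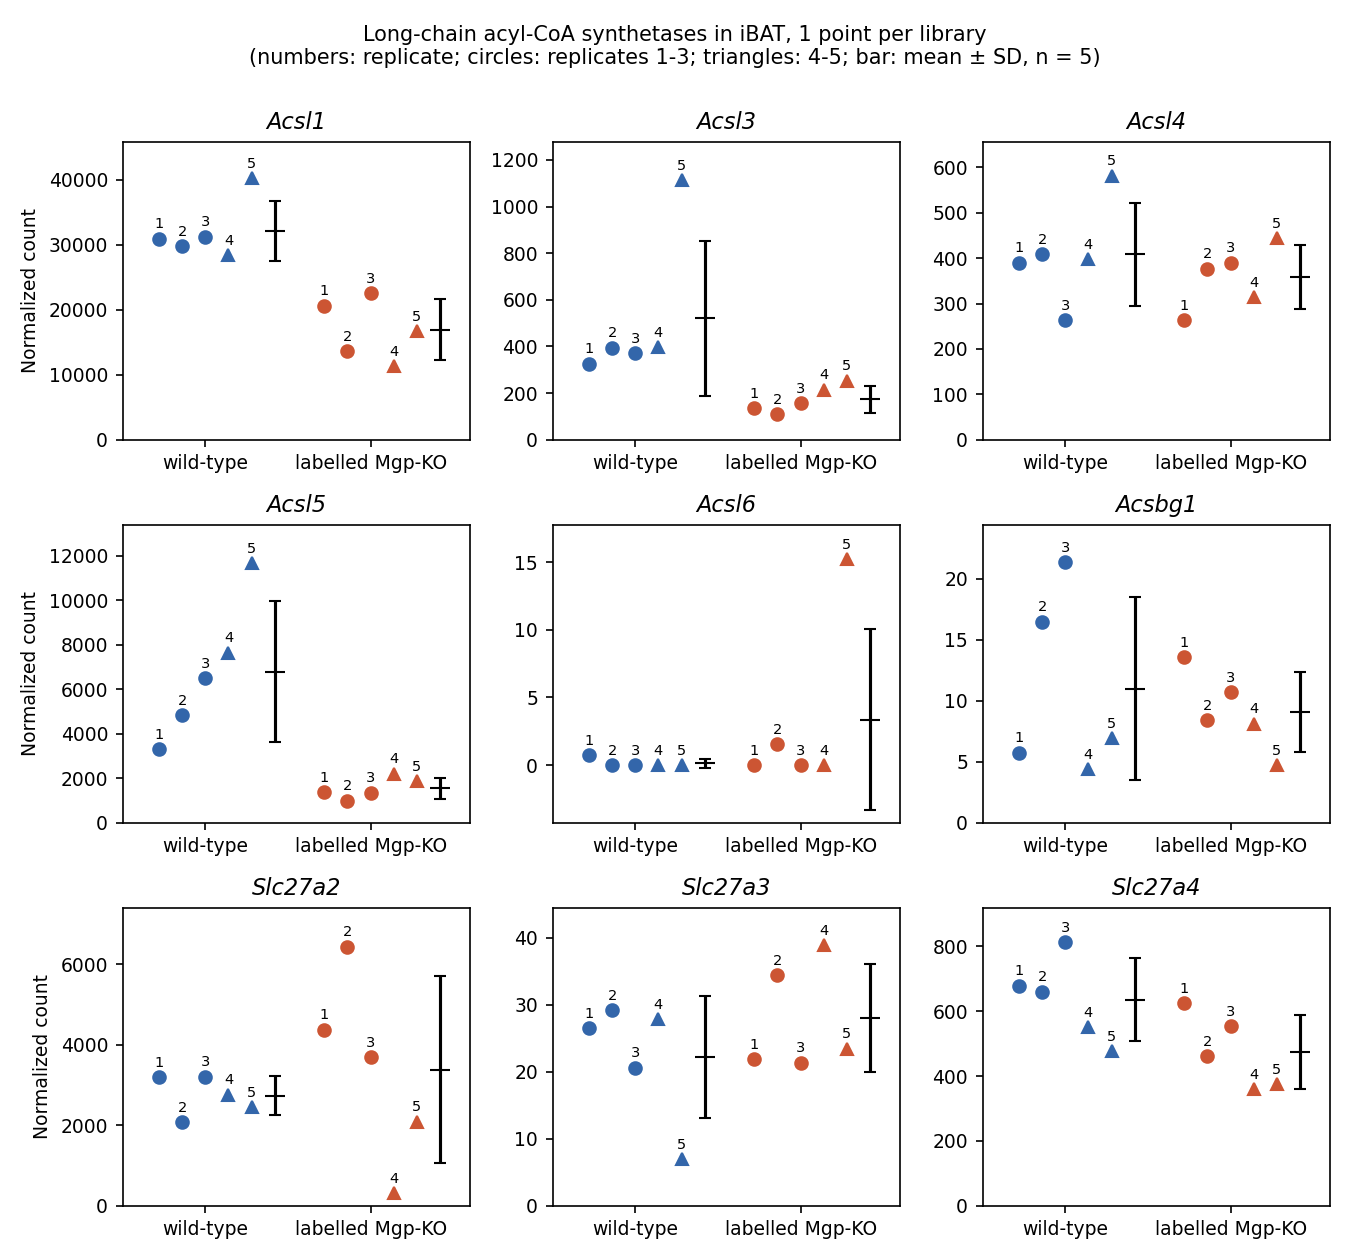
Normalized count of each of the 9 long-chain acyl-CoA synthetases (y axis, a separate scale per gene, running below 0 for *Acsl6* because of its SD bar) in the 5 wild-type and 5 labelled *Mgp*-KO libraries, 1 point per library, with the mean and SD beside them. *Acsl1*, *Acsl3* and *Acsl5* do not overlap between the groups, and *Slc27a2* has labelled *Mgp*-KO points both above and below all wild-type points.

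*Acsl5* (chr19:55251938-55297720, plus strand, GRCm38) encodes an isoform found at the outer mitochondrial membrane and endoplasmic reticulum, known for a part in lipid synthesis and in the handling of newly made fatty acids. Its normalized counts were 3296, 4840, 6508, 7639 and 11658 in WT 1 to WT 5, and 1368, 991, 1356, 2193 and 1862 in KO 1 to KO 5. The highest labelled *Mgp*-KO library, KO 4, still lay below the lowest wild-type library, WT 1, and the wild-type libraries themselves differed by more than 3-fold. The means were 6788 ± 3182 and 1554 ± 473 (SD, n = 5 each), a 4.37-fold difference. On the log2 scale the difference was -2.05 with a standard error of 0.33, and its adjusted p of 0.0504 from limma missed the threshold. The call was made with the term for the set of replicates (adjusted p = 0.00585, limma), without KO 4 and KO 5 (log2 fold change -2.34, adjusted p = 0.0170, limma) and by DESeq2 (adjusted p = 1.60e-06). Over all 30 alternative settings its log2 fold change stayed between -2.34 and -1.83, with adjusted p from 6.48e-18 to 0.680 (limma, edgeR or DESeq2) and 16 calls.

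*Acsl3* (chr1:78657825-78707743, plus strand) encodes an isoform of the endoplasmic reticulum and lipid droplet surface that supports the growth of new droplets. It had 326, 394, 371, 396 and 1113 normalized counts in WT 1 to WT 5 and 135, 110, 155, 214 and 253 in KO 1 to KO 5. The groups did not overlap, and WT 5 lay far above the other 4 wild-type libraries. The means were 520 ± 333 and 173 ± 58.8 (SD, n = 5 each). The log2 fold change was -1.47 (standard error 0.35), which did not pass over all libraries (adjusted p = 0.126, limma), passed with the set term (adjusted p = 0.0160, limma), and was -1.16 without WT 5 (adjusted p = 0.182, limma).

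*Acsl1* (chr8:46471037-46536051, plus strand) encodes the isoform that serves fatty acid oxidation in adipose tissue, heart and muscle. Its normalized counts were 30899, 29800, 31202, 28364 and 40252 in WT 1 to WT 5, against 20631, 13571, 22501, 11302 and 16678 in KO 1 to KO 5. Again no library of one group reached into the range of the other: WT 4 was the lowest of its group and KO 3 the highest of the other. The means of 32103 ± 4689 and 16937 ± 4684 (SD, n = 5 each) differed 1.90-fold. The log2 fold change was -0.96 (standard error 0.25), with an adjusted p of 0.172 over all libraries and 0.0552 with the set term (limma). DESeq2 called it lower (adjusted p = 0.00548). As the most abundant member, it rested on at least 6982 reads in each library, against at least 1295 for *Acsl5* and 132 for *Acsl3*.

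The 10 brown adipocyte markers all had a log2 fold change below 0, with a median of -0.40 against 0.03 over all tested genes. Of them limma called 0 over all libraries (0.0583% of tested genes lower) and 3 with the set term (1.54% lower). The 8 endothelial markers all had a log2 fold change above 0, with a median of 0.42, and limma called 0 of these in either fit. *Ucp1*, the uncoupling protein of brown fat, ran from 38421 to 116019 normalized counts in wild-type and from 2201 to 15641 in those labelled *Mgp*-KO, and the summed count of all 10 brown adipocyte markers from 213412 to 414737 and from 146682 to 305238. *Adipoq*, an adipocyte marker in both white and brown fat, was 12547 to 16236 in wild-type, 10789 to 20088 in 4 labelled *Mgp*-KO libraries and 4675 in KO 4. Set against *Adipoq* in the same library, *Acsl5* was at 0.250 to 0.770 in wild-type and at 0.0918 to 0.110 in KO 1, KO 2, KO 3 and KO 5, but at 0.469 in KO 4. The ratio of *Acsl3* to *Adipoq* was likewise 0.0240 to 0.0735 in wild-type and at most 0.0126 outside KO 4, where it was 0.0457. The ratio of *Acsl1* to *Adipoq* overlapped between the groups, at 1.75 to 2.66 in wild-type and 0.830 to 2.42 in the libraries labelled *Mgp*-KO, with KO 4 at the top. The part of adipocyte content in the lower counts was not tested.

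Part of each of these 3 genes shares bases with a neighbour. Exons of *Zdhhc6* on the opposite strand overlap 404 bases (8.31%) of the *Acsl5* exons, those of *Utp14b* on the same strand 244 bases (5.60%) of *Acsl3*, and the transcript model *Gm45244* on the opposite strand 1039 bases (9.91%) of *Acsl1*. *Zdhhc6* and *Utp14b* had mean normalized counts of 394 and 143, against 4171 for *Acsl5* and 347 for *Acsl3*, and *Gm45244* had 4.81 against 24520 for *Acsl1*. Their log2 fold changes were -0.60 for *Zdhhc6* (adjusted p = 0.162) and -1.08 for *Utp14b* (adjusted p = 0.533), both from limma. The strand setting of the counting is not given in the sources used here, so reads in the shared bases cannot be assigned with certainty.

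Because *Acsl5*, *Acsl3* and *Acsl1* lay lower together, the 250 bases before their RefSeq start sites are shown (GRCm38.p6, plus strand, 5′ to 3′). Capitals mark matches, on either strand, to 6 short motifs: the E-box CACGTG, a sterol response element searched as TCACNCCAC, the nuclear receptor core motif AGGTCA, the CCAAT box, the GC box GGGCGG and the TATA motif TATAAA. *Acsl1* has 2 start sites in RefSeq, the first at the GENCODE gene start and the second 19929 bases downstream in the gene, and both are given. The RefSeq start of *Acsl5* lies 1431 bases downstream of its GENCODE gene start, so its window lies inside the gene coordinates given above.
Acsl5, chr19:55253119-55253368: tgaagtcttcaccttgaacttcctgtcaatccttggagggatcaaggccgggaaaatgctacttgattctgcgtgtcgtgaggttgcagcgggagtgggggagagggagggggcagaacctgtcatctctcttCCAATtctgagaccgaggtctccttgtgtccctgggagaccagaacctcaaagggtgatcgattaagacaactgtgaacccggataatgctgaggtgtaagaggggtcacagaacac
Acsl3, chr1:78657575-78657824: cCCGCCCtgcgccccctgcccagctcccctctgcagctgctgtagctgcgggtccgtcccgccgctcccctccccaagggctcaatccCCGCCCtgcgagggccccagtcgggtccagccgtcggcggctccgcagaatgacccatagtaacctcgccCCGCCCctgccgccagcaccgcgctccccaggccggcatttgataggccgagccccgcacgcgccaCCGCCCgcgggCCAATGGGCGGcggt
Acsl1, first start, chr8:46470787-46471036: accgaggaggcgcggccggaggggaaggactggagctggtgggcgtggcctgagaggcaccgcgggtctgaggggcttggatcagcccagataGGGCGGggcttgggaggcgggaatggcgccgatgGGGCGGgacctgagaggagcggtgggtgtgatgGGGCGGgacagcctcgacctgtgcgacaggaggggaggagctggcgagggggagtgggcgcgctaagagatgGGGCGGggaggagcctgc
Acsl1, second start, chr8:46490716-46490965: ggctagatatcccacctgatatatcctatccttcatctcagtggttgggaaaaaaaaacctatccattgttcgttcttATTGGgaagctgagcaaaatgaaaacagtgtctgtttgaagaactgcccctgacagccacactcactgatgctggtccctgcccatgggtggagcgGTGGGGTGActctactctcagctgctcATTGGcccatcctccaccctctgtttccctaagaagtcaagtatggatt

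The window of *Acsl5* held 1 match, a CCAAT, which 33.9% of the 32851 RefSeq promoters of this length also hold. That of *Acsl3* held a CCAAT next to a GC box just before the start, and 4 further GC boxes on the other strand. The first *Acsl1* window held 4 GC boxes, a motif found in 32.7% of promoters, while the second held none but had a CCAAT on the reverse strand at 2 places and, between them, the only sterol response element of the 12 windows of the 9 members. Of all promoters, 1.05% hold that element. Neither the E-box nor the TATA motif was in any window of these 3 genes, and the motif AGGTCA was in those of *Slc27a2* and *Acsl6* only. A match is a description of the letters and not a measured site.

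The other ACSL isoforms did not show this separation. *Acsl4* (chrX:142317993-142390535, minus strand), whose enzyme prefers arachidonic acid and other polyunsaturated fatty acids, had 390, 409, 263, 397 and 581 normalized counts in WT 1 to WT 5 and 263, 377, 390, 314 and 444 in KO 1 to KO 5. The groups overlapped over most of their range. The log2 fold change was -0.17 with a standard error of 0.23 (adjusted p = 0.843, limma). Per kilobase, *Acsl3* was above *Acsl4* in all 5 wild-type libraries and below it in all 5 labelled *Mgp*-KO. The ratio of *Acsl4* to *Acsl3* normalized counts, which needs no size factor, was 0.523 to 1.20 in wild-type and 1.47 to 3.42 in the libraries labelled *Mgp*-KO, with no overlap.

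*Acsl6* (chr11:54303798-54364756, plus strand), the isoform of brain and other neural tissue, had 16 reads in all 10 libraries together and fell under the filter of a mean of 10 normalized counts. Of these, 13 reads (15.2 normalized counts) came from KO 5, 2 from KO 2 and 1 from WT 1. The 7 other libraries had none, which allows up to 3 reads, or 2.21 to 5.19 normalized counts, in each. With 7 of 10 libraries at 0 no test of the genotypes is given. KO 5 and KO 2 were the libraries with the highest muscle marker sums given above. The neuron-defining markers *Tubb3*, *Snap25* and *Th* were at most 6.92 normalized counts in any library. The part of other tissue in the *Acsl6* reads was not tested.

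*Acsbg1* (chr9:54604877-54661870, minus strand), a synthetase first known from brain, adrenal gland and gonads, was at 4.40 to 21.3 normalized counts in wild-type and 4.69 to 13.6 in the libraries labelled *Mgp*-KO, from 3 to 29 reads each. The log2 fold change of -0.09 had a standard error of 0.52 (adjusted p = 0.969, limma), and the groups overlapped.

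None of the 3 fatty acid transport proteins passed the test over all libraries by limma, and the *Slc27a2* log2 fold change had opposite signs in the sets of replicates. *Slc27a4* (chr2:29802634-29817522, plus strand), whose FATP4 protein activates long and very long chain fatty acids in many tissues, had 679, 660, 814, 551 and 476 normalized counts in WT 1 to WT 5 and 625, 462, 554, 359 and 374 in KO 1 to KO 5. KO 1 and KO 3 lay inside the wild-type range, and the other libraries labelled *Mgp*-KO lay below it. The log2 fold change was -0.43 with a standard error of 0.21 (adjusted p = 0.522, limma), and DESeq2 with the set term was the only setting that called it (adjusted p = 0.0345). *Slc27a3* (chr3:90385239-90389938, minus strand) had 6.92 to 29.2 normalized counts in wild-type and 21.3 to 38.9 in those labelled *Mgp*-KO, and the difference on the log2 scale was 0.42 with a standard error of 0.41 (adjusted p = 0.777, limma).

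*Slc27a2* (chr2:126552407-126588243, plus strand) encodes FATP2, known best in liver and kidney for the uptake of fatty acids and the activation of very long chain ones. Its normalized counts were 3190, 2082, 3208, 2760 and 2449 in WT 1 to WT 5. In KO 1, KO 2 and KO 3 they were 4380, 6436 and 3698, each above all wild-type libraries. In KO 4 and KO 5 they were 314 and 2086, and KO 4 lay far below all others. The log2 fold change over all 10 libraries was -0.21 with a standard error of 0.65 (adjusted p = 0.944, limma), and its sign depended on the setting: it was 0.31 by DESeq2, 0.51 without KO 4 and 0.80 without KO 4 and KO 5 (adjusted p = 0.104, limma).

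Beside these values, the 4 hepatocyte and kidney markers together were at 0 to 8.79 normalized counts in all libraries but KO 4. There *Alb* was at 104 and *Apoa1* at 48.6 normalized counts, while the kidney marker *Lrp2* was at 0, and *Slc27a2* was at its lowest. KO 4 also had the lowest *Adipoq* and the highest endothelial and erythroid sums. Per *Adipoq* in the same library, *Slc27a2* was 0.162 to 0.242 in wild-type, 0.300 to 0.596 in KO 1 to KO 3, 0.0672 in KO 4 and 0.104 in KO 5, so KO 1 to KO 3 lay above and KO 4 and KO 5 below the wild-type range on this scale. The part of other cells in the *Slc27a2* values was not tested. Exons of *Gm26697* on the opposite strand overlap 419 bases (11.2%) of *Slc27a2*, with a mean of 25.9 normalized counts against 3060.

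Within the sets of replicates, the direction of the 3 lower ACSL mRNAs was the same in both. Both log2 fold changes were below 0 for 5 of the 8 tested members, against 28.1% of all tested genes. One model with 4 groups gave *Acsl5* a difference of -1.94 on the log2 scale (standard error 0.27, adjusted p = 0.0280, limma) in replicates 1 to 3, the only member called there, where 0.153% of tested genes were called lower. In replicates 4 and 5 it was -2.22 (standard error 0.33, adjusted p = 0.0578, limma), and no gene was called lower there (0%). The call in replicates 1 to 3 was lost when any of WT 2, WT 3, KO 1, KO 2 or KO 3 was left out, with adjusted p of 0.0650 to 0.178 (limma) and log2 fold changes of -2.02 to -1.70. *Acsl3* had -1.45 and -1.51, and *Acsl1* -0.73 and -1.30, in replicates 1 to 3 and in replicates 4 and 5, with no call for either gene in this limma fit. *Acsl3* was called in 4 of the alternatives within replicates 1 to 3. Among them were DESeq2 (adjusted p = 0.00204), which called 308 of 15026 genes lower, and a separate limma fit (adjusted p = 0.00791), which called 232 of 13439 lower. In replicates 4 and 5 *Acsl3* was at -0.76 without WT 5, which leaves a lone wild-type library there. *Acsl1* was called in replicates 4 and 5 by DESeq2 (adjusted p = 0.00323), which called 445 of 13441 genes lower. Without KO 5, which leaves a lone labelled *Mgp*-KO library, *Acsl1* was at -1.58. *Slc27a4* had -0.40 and -0.48.

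For *Slc27a2* the log2 fold change was 0.76 in replicates 1 to 3, with a standard error of 0.55, and -1.68 in replicates 4 and 5, with one of 0.67. The value in replicates 4 and 5 was -3.05 without KO 5 and -0.32 without KO 4, and each of these fits leaves a lone labelled *Mgp*-KO library in that set. The difference between the sets in the fit of all libraries was -2.44 (standard error 0.87, unadjusted p = 0.0182), and it did not pass the adjustment over all genes (adjusted p = 0.455, limma). It was -3.81 without KO 5 and -1.08 without KO 4, again with a lone labelled *Mgp*-KO library in replicates 4 and 5. No member was called for a difference between the sets in the fit of all libraries, where limma called 0.00729% of tested genes. The lack of a call does not show that the genotype differences were alike. The unadjusted p was under 0.05 for *Slc27a2* alone, and DESeq2 called no member either.

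**Figure D2:**
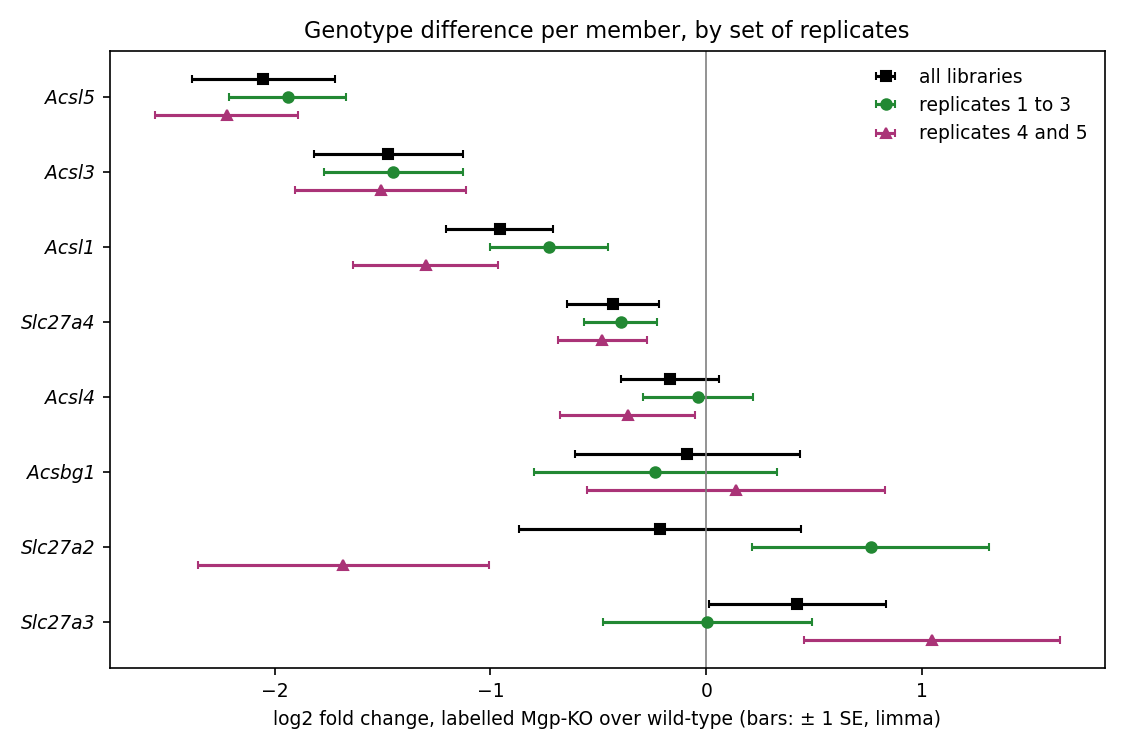
Log2 fold change of the 8 tested members (x axis, labelled *Mgp*-KO over wild-type, limma) over all libraries (squares), within replicates 1 to 3 (circles) and within replicates 4 and 5 (triangles), with bars of 1 standard error on either side. *Acsl5*, *Acsl3* and *Acsl1* lie left of 0 in all 3 fits, and *Slc27a2* lies at 0.76 in one set and -1.68 in the other.

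The sets themselves differed in the level of 4 of the 8 members, beside 40.3% of all tested genes. Averaged over the genotypes, *Acsl5* was higher in replicates 4 and 5 by 0.86 on the log2 scale (adjusted p = 0.0103, limma) and *Acsl3* by 0.84 (adjusted p = 0.0250), while *Slc27a4* fell by 0.52 (adjusted p = 0.0118) and *Slc27a2* by 1.32 (adjusted p = 0.0349). For *Slc27a2* this average covers unlike values in the genotypes. Its means in replicates 1 to 3 and in replicates 4 and 5 were 2827 and 2604 normalized counts in wild-type, against 4838 and 1200 under the *Mgp*-KO label, with KO 4 at 314. *Acsl1* did not pass, with a difference of -0.14 (adjusted p = 0.625). Thus WT 4 and WT 5 were the highest wild-type libraries for *Acsl5*, and a comparison that crosses the sets mixes this difference with that of genotype.

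The shares of the members in the family are given as a description, without a test. The normalized counts of all 9 members together were 38231 to 56542 in wild-type and 14744 to 28686 in the libraries labelled *Mgp*-KO. By summed level per kilobase, the share of *Acsl1* was 55.8% ± 4.81 in wild-type and 53.4% ± 9.01 in the libraries labelled *Mgp*-KO (SD, n = 5 each), with overlapping ranges. *Acsl5* made up 24.3% ± 7.23 in wild-type and 12.0% ± 7.77 in the libraries labelled *Mgp*-KO. *Slc27a2* made up 13.5% ± 3.43 and 26.7% ± 16.6. The ranges of both overlapped between the groups, at 14.2% to 32.5% and 5.94% to 24.8% for *Acsl5* and at 8.86% to 17.7% and 4.60% to 50.0% for *Slc27a2*. The order of the mean levels in the libraries labelled *Mgp*-KO was *Acsl1* at 1616, *Slc27a2* at 901, *Acsl5* at 319, *Slc27a4* at 108, *Acsl4* at 66.2 and *Acsl3* at 39.8 normalized counts per kilobase, so that *Slc27a2* stood above *Acsl5*, and *Acsl4* above *Acsl3*.

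Within replicates 1 to 3 the shares of *Acsl5* and of *Slc27a2* did not overlap between the groups. This compares 3 with 3 libraries, and how often other genes separate in this way was not counted. The shares are parts of 1 sum, so each depends on the others. The *Acsl5* share was 14.2%, 21.1% and 24.3% in WT 1 to WT 3 and 7.71%, 5.94% and 7.63% in KO 1 to KO 3, while that of *Slc27a2* was 17.7%, 11.7% and 15.5% in WT 1 to WT 3 and 32.0%, 50.0% and 27.0% in KO 1 to KO 3. In KO 2 the share of *Slc27a2* exceeded that of *Acsl1*, at 37.8%, but with the longest transcript as length *Acsl1* was the larger there, at 47.2% against 43.6%. In WT 4 and WT 5 the *Acsl5* share was 29.6% and 32.5%, and that of *Slc27a2* 13.8% and 8.86%. In KO 4 these shares were 24.8% and 4.60%, and in KO 5 they were 13.8% and 20.1%, so that the shares of *Slc27a2* in this set lay on both sides of wild-type. Without KO 4 the mean *Acsl5* share of the libraries labelled *Mgp*-KO was 8.78%, against 12.0% with it.

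**Figure D3:**
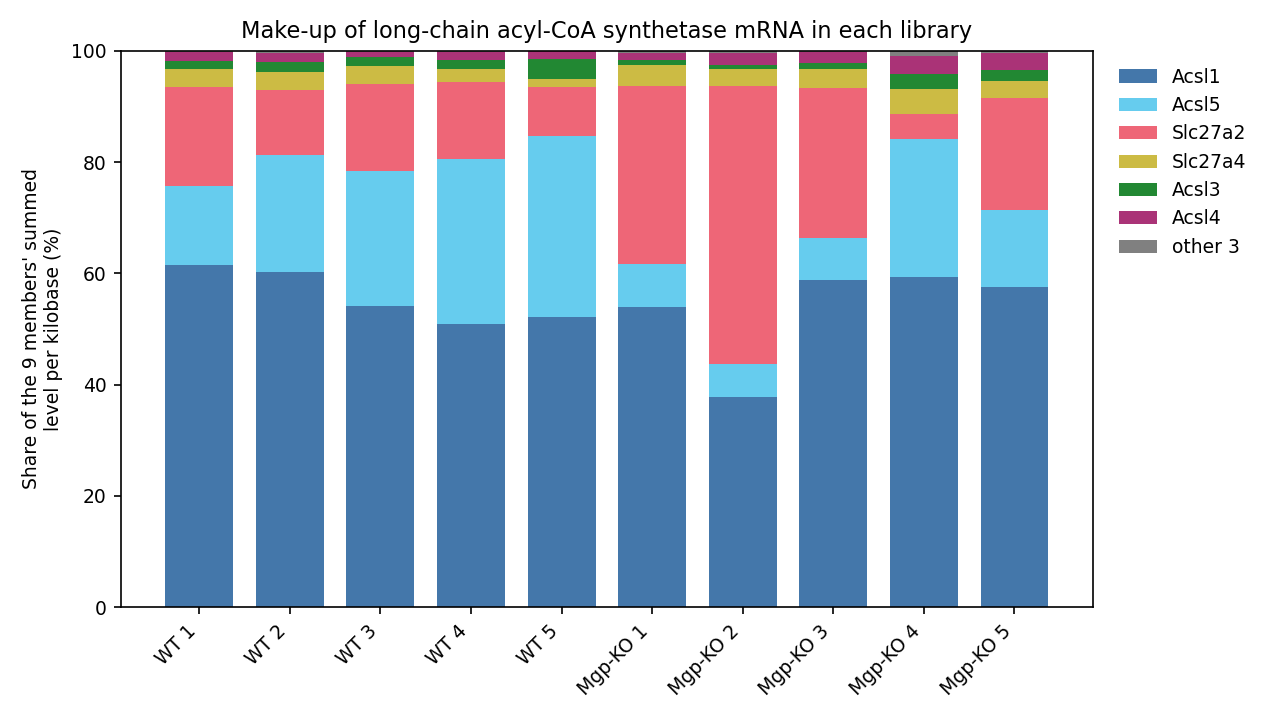
Share of each member in the 9 genes' summed level per kilobase (y axis, percent, stacked to 100) in each of the 10 libraries. With all exons of a gene as its length, *Acsl1* holds the largest segment in every library but KO 2 (and there too with the longest transcript), and the *Slc27a2* segment is larger than the *Acsl5* segment in KO 1, KO 2, KO 3 and KO 5, as in WT 1.

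Ratios of 2 members within a library do not depend on its size factor or on gene length in the comparison of libraries. *Acsl1* over *Acsl5* was 9.38, 6.16, 4.79, 3.71 and 3.45 in WT 1 to WT 5 and 15.1, 13.7, 16.6, 5.15 and 8.96 in KO 1 to KO 5. Within replicates 1 to 3 and within replicates 4 and 5 every labelled *Mgp*-KO ratio was above every wild-type ratio, whereas over all 10 libraries the groups overlapped. *Slc27a2* over *Acsl5* was 0.968, 0.430, 0.493, 0.361 and 0.210 in WT 1 to WT 5. In KO 1, KO 2, KO 3 and KO 5 it was 3.20, 6.50, 2.73 and 1.12, above all wild-type libraries, and in KO 4 it was 0.143, below them all.

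**Figure D4:**
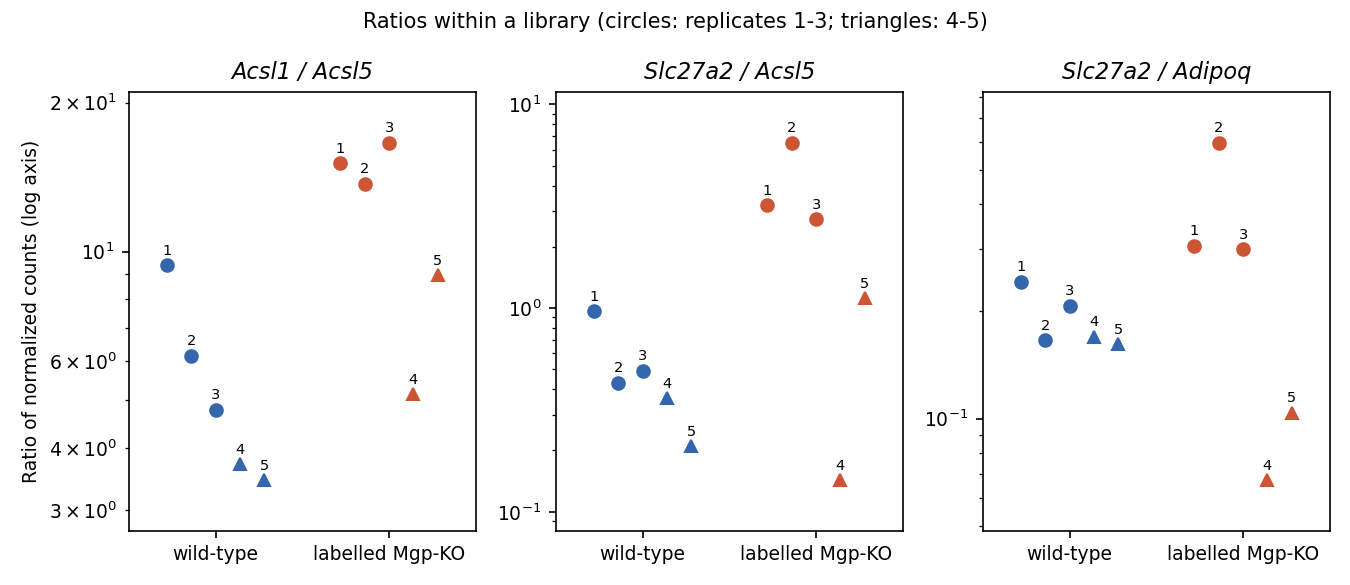
Ratios of normalized counts within each library (log y axis) for *Acsl1* over *Acsl5*, *Slc27a2* over *Acsl5* and *Slc27a2* over *Adipoq*, 1 point per library, with circles for replicates 1 to 3 and triangles for replicates 4 and 5. KO 1 to KO 3 lie above all wild-type libraries in each panel, and KO 4 lies below all of them in the panels of *Slc27a2*.

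Genes that act next to the long-chain synthetases were described from 7 lists. Among 9 tested genes of 16 other acyl-CoA synthetases listed, the median log2 fold change was -0.60, against 0.03 over all tested genes, but the 2 sets of replicates had medians of opposite sign, 0.12 for replicates 1 to 3 and -1.08 for replicates 4 and 5. None was called over all libraries by limma, and 2 were lower with the set term, beside 1.54% of all tested genes. *Acss2*, the cytosolic synthetase that makes acetyl-CoA from acetate, had a mean of 6313 ± 2664 normalized counts in wild-type and 1447 ± 437 in the libraries labelled *Mgp*-KO (SD, n = 5 each), which is -2.07 on the log2 scale (adjusted p = 0.0504 over all libraries and 0.0134 with the set term, limma). *Acsf3*, the mitochondrial malonyl-CoA synthetase, had -0.82 (adjusted p = 0.0408 with the set term and 0.141 without it, limma). *Slc27a1*, the FATP isoform most tied to adipose tissue and muscle, had -0.17 (adjusted p = 0.930, limma).

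In the next 3 lists no gene was called over all libraries by limma, and the calls given were made with the set term, in a fit that called 1.54% of all tested genes lower. For acyl-CoA binding, 1 of 5 tested genes was called lower in that fit, *Dbi*, the main acyl-CoA binding protein. Its log2 fold change was -1.26 (adjusted p = 0.0141 with the set term and 0.303 without it, limma), and DESeq2 without that term called 0 genes of this list. For import into peroxisomes, 1 of 3 was, *Abcd3*, with -0.93 (adjusted p = 0.0369 with the set term and 0.164 without it, limma). For the use of acyl-CoA in glycerolipids, 1 of 6 was, *Mogat1*, with -2.93 (adjusted p = 0.0165 with the set term and 0.225 without it, limma), and DESeq2 without that term called none of this list. All 6 had a log2 fold change below 0 beside 47.3% of all tested genes. Of 9 tested acyl-CoA thioesterases, which reverse the synthetase reaction, *Acot11* was called lower over all libraries and with the set term, with a log2 fold change of -2.14 (adjusted p = 0.0471 and 0.0127, limma). The 2 fits called 0.0583% and 1.54% of all tested genes lower.

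None of the 7 tested genes of the carnitine system, which carries acyl groups into mitochondria, was called by limma with or without the set term. *Cpt2*, the carnitine acyltransferase of the inner membrane, had a log2 fold change of -0.81 (adjusted p = 0.236 without and 0.0526 with that term, limma). None of the 5 genes of fatty acid uptake was called either, and their median log2 fold change was 0.16. *Cd36*, the main fatty acid translocase, had a mean of 30205 ± 8096 normalized counts in wild-type and 33161 ± 5001 in the libraries labelled *Mgp*-KO (SD, n = 5 each), with overlapping ranges.

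The genes whose pattern over the 10 libraries was most like that of each member were named by Pearson correlation on log2(normalized count + 1) over all 13714 tested genes. For *Acsl5* these were *Gpd2*, *Ddhd2* and *Rbp4* (r = 0.97 each), for *Acsl3* *Slc35g1* (0.97), *Abcd3* (0.96) and *Cln8* (0.96), and for *Acsl1* *Acsf3*, *Otop1* (0.97 each) and *Atpaf2* (0.96). Among members the closest pair was *Acsl3* and *Acsl5*, at r = 0.94, while *Acsl1* was at 0.78 with *Acsl5* and 0.76 with *Acsl3*. *Slc27a2* stood apart from both *Acsl3* (-0.18) and *Acsl5* (-0.14), and was most like *Tmeff1* (0.98), *Vat1l* and *Aldh6a1* (0.97 each). These correlations are over libraries that share the differences between genotypes and between sets.

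After the mean of each genotype in each set was subtracted, the 3 genes most like *Acsl5* were *Tubb4b* (0.99), *Acss2* (0.98) and *Srprb* (0.97). Those most like *Acsl3* were *Kit*, *Rpia* (0.99 each) and *Pm20d2* (0.98), and those most like *Acsl1* were *Dpy19l1*, *Dip2a* and *Cd274* (0.99 or more each). No gene named for these 3 members in this way was also named from the values as they were. For *Slc27a4* the nearest genes were *Sardh* and *Dagla* before and *Nenf*, *Ap2s1* and *Krtcap2* after the subtraction, for *Acsl4* *Ppwd1* came first in both (0.95 and 0.98), and for *Slc27a3* and *Acsbg1*, at few reads, *Cdc42ep1* (0.95) and *Hdac11* (0.90) came first on the values as they were. With 10 libraries and 13714 genes, each tested member had at least 3 genes at r = 0.87 or more on the values as they were, and the correlations are descriptions only.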

How the data were processed

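The deposited table held, for 27267 gene symbols, read counts that the authors had divided by a DESeq2 size factor per library, a signal proportional to reads. The authors mapped 50 base reads to mm10 with STAR. The annotation release and strand setting are not given in the sources used here. Every value was a whole multiple of its library's step (100% within 0.01 read), so whole reads were recovered for the count tools.

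Genotypes were compared with limma 3.58.1 (R 4.3.3) after a pseudocount of 1 and log2 transformation, over 13714 genes whose mean was 10 or more, with Benjamini-Hochberg adjustment over all of them and a threshold of 0.05. The sets of replicates (1 to 3, 4 and 5) entered one fit of 4 groups. Alternatives were other pseudocounts, filters and scalings, terms for set or replicate, edgeR 4.0.16 and DESeq2 1.42.0 on recovered reads, and libraries left out. The fits were tested on simulated data. Lengths and coordinates were from GENCODE (GRCm38), promoters from RefSeq (GRCm38.p6, all 9 members matched). The members, lists and alternatives were chosen with earlier results of these data known. The text names all members, genes of the lists, markers that moved with a result and, of the 3 genes most correlated with a member, those given in the text (1 is not reported here). Neighbours with shared exons, and the alternatives that left out a library from the set-term fit or from the difference between sets, were added after the data were seen. Floors cover counting error only.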

Additional observations from a re-analysis of the deposited data

Results flagged for a closer look

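In 5 wild-type libraries *Acsl1* was at 40252 normalized counts in WT 5 and *Acsl3* at 1113, both set apart from the other 4 by a gap larger than 0.71 of the whole range. *Acsl6* was set apart in the same way at 0.715 in WT 1, which is 1 read beside 4 libraries at 0, and at 15.2 in KO 5, beside 3 libraries at 0. With so many libraries at 0 the gap in *Acsl6* follows from the low counts. Among groups without such ties, gaps of this size arise by chance in about 1 of 20 groups, and 18 groups were looked at. *Slc27a2* lay above all wild-type libraries of its set in KO 1 to KO 3 and below both in KO 4 and KO 5, and the genotype difference in replicates 4 and 5 minus that in replicates 1 to 3 was -2.44 on the log2 scale, which did not pass the test (adjusted p = 0.455, limma).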

How the results depend on the processing

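Over all 10 libraries limma called 9 genes and 0 members (8 and 0 lower, 3 members at an unadjusted p under 0.05). The counts of genes called in either direction and of members called, each of them lower, were 29 and 1 with a pseudocount of 10, 1 and 0 with no filter, 15 and 1 with a mean of at least 50, and 34 and 1 after quantile normalization. They were 324 and 2 with the set term, 79 and 2 with it when WT 2 was left out, and 681 and 3 with it when KO 4 was left out. edgeR gave 3 and 0, or 341 and 2 with the set term, and DESeq2 374 and 3, or 1152 and 4. Without KO 4 and KO 5 there were 265 and 2, in replicates 1 to 3 alone 507 and 2, and in replicates 4 and 5 alone 0 and 0. Leaving out 1 library gave 0 to 93 genes (93 without KO 4, 34 without WT 4, 5 without KO 5, 0 without WT 2, WT 3, WT 5, KO 1 or KO 3) and 0 to 1 member, *Acsl5*, called without WT 1 (adjusted p = 0.0485) or KO 4 (adjusted p = 0.0278).

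Replicate numbers are shared by the groups, but the deviations of same-numbered libraries correlated at only 0.0559 for replicate 2 (0.327 to 0.527 for the others), and 5 of 10 libraries correlated best with their own number, so the samples were not taken as paired. The methods speak of pairs of mice but do not tie them to these numbers. A replicate block called 270 genes and 2 members in limma (1.3% of tested genes lower), *Acsl5* (adjusted p = 0.0179) and *Acsl3* (adjusted p = 0.0188), 222 and 2 in edgeR, and 921 and 3 in DESeq2.

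Within replicates 1 to 3, 42 genes and 1 member were called by limma, 84 with a pseudocount of 10, 507 and 2 in a separate fit, and 650 and 2 by DESeq2. Leaving out 1 library gave 4 to 261 genes (4 without WT 2, 261 without KO 5) and 0 to 2 members. Within replicates 4 and 5, 0 genes were called by limma, 22 and 1 member with a pseudocount of 10, and 723 and 3 by DESeq2. Leaving out 1 library gave 0 to 3446 genes (3446 without KO 5, 158 without WT 4, 28 without KO 4) and 0 to 4 members (4 without KO 5, 2 without WT 4), where the lone sample is assumed to vary like the other groups. For the difference between the sets, 1 gene was called by limma and 61 by DESeq2, and leaving out 1 library gave 1 to 1612 genes (1612 without KO 5) and 0 to 1 member. The causes were not tested.

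The *Slc27a2* difference of -0.21 reversed to 0.30 in edgeR, 0.031 in edgeR with the set term, 0.31 in DESeq2, 0.032 in DESeq2 with the set term, 0.76 in replicates 1 to 3 alone, 0.43 with the set term without KO 4 and 0.80 without KO 4 and KO 5, and ran from -0.58 to 0.51 (without KO 4) when 1 library was left out. That of *Acsbg1* was 0.19 without KO 4 and KO 5 and ran from -0.32 to 0.10 when 1 library was left out, and from -0.20 to 0.48 within replicates 4 and 5. Within replicates 1 to 3, *Acsl4* ran from -0.24 to 0.14 and *Slc27a3* from -0.21 to 0.12. With the longest transcript as length the *Acsl1* share was 66.3% in wild-type and 63.4% in the libraries labelled *Mgp*-KO. The *Acsl5*, *Acsl3* and *Acsl1* differences stayed below 0 in all 30 alternatives over all libraries. The low counts, 3 to 29 reads per library for *Acsbg1* and 16 in all for *Acsl6*, carry the largest counting error.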
